A study of Mus musculus with 30 samples.

Results

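The response of adult mouse microglia to HMGB1 was compared between cells used directly after isolation (Protocol 3) and cells kept in culture for 7 days first (Protocol 2). For each gene the quantity compared was the log2 fold change with HMGB1 in Protocol 3 minus that in Protocol 2, the interaction of treatment with protocol. A negative value means a smaller rise, or a larger fall, in Protocol 3. The comparison took 12 of the 30 libraries of the series, 3 in each of 4 groups, and it was tested for 17634 of the 54532 genes in the table. Of these, 62 genes passed, 58 of them more negative and 4 more positive in Protocol 3.

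The series is bulk RNA sequencing of microglia from brains of C57/B6 mice, prepared by 5 protocols and left untreated (Control) or given HMGB1 for 4 h. Mice of Protocols 2 and 3 were 6 to 8 weeks old. Protocol 2 selected cells by adherence, pooled the cells of 3 brains in a flask, and cultured them with GM-CSF and M-CSF (100 ng/ml of each factor, 7 days) before they were detached and plated again without serum. Protocol 3 bound cells with magnetic beads against CD11b and put them straight into serum-free medium with neither factor. HMGB1 was thus given no earlier than the day after this second plating in Protocol 2 and at once in Protocol 3, and its concentration is stated for Protocol 3 only. Age of the culture, growth factors, isolation and pooling all change together between the protocols and cannot be told apart.

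HMGB1 is a nuclear protein that binds DNA. When it leaves stressed or dying cells it acts as an alarm signal for innate immune cells, read by Toll-like receptors, among them TLR2 and TLR4, and by the receptor RAGE. The Toll-like receptors use the adaptor MyD88 to free NF-κB from its IκB inhibitors, and NF-κB switches on cytokines together with its own inhibitors, which end the signal. TLR4 can also signal through the adaptor TRIF to IRF3 and interferon β, and interferon β in turn induces a set of antiviral genes. Microglia are the resident macrophages of the brain parenchyma.

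Total counts ran from 14151983 in Protocol 3 HMGB1 replicate 2 to 26971097 in Protocol 2 HMGB1 replicate 2. Genes of rRNA type took 0.0598% and 0.0628% of the counts in the Protocol 2 libraries numbered 2 and between 1.23% and 2.11% in the other 10. The summed level of 12 microglia markers was 3528 to 4060 CPM (TMM-normalised read counts) in the 6 Protocol 2 libraries and 5782 to 6873 CPM in the 6 of Protocol 3. All 12 were detected in both protocols, but Siglech averaged 0.579 CPM in Protocol 2 Controls and 440.3 CPM in Protocol 3 Controls, and Tmem119 4.63 and 59.4 CPM. Markers of other cells followed the protocol more than the treatment. The sum of 12 neutrophil genes was 67.7 to 79.2 CPM in Protocol 2 Control, 73.2 to 89.9 in Protocol 2 HMGB1, 425.8 to 869 in Protocol 3 Control and 419.2 to 834 CPM in Protocol 3 HMGB1, with S100a9, Retnlg and Mpo at 0 in every Protocol 2 library. Of the same list Mmp8 was higher in Protocol 2 Control, at 20.1 CPM against 3.69 in Protocol 3 Control, Mmp9 was at 13.7 and 12.3 CPM and Lcn2 at 36.2 and 78.1 CPM. The 6 erythroid genes summed to at most 0.408 CPM in Protocol 2, where all 4 globin genes were at 0, and to 344 to 651 CPM in Protocol 3. Fibroblast and mural cell genes, 13 in all, summed to 442 to 609.5 CPM in Protocol 2 and 45.4 to 55.2 CPM in Protocol 3, and none was at 0. Postn made up much of that sum, at 217 CPM in Protocol 2 Control and 7.34 in Protocol 3 Control. Rgs5, Acta2, Vtn and Cspg4 went the other way in Control. Their means were 14.7, 4.97, 0.994 and 6.85 CPM in Protocol 2 Control and 17.4, 8.78, 3.63 and 8.995 CPM in Protocol 3 Control. With HMGB1 Vtn and Cspg4 were again lower in Protocol 2, at 0.768 and 6.94 CPM against 3.04 and 8.11. Rgs5 and Acta2 were not, at 19.85 and 6.96 CPM against 17.82 and 6.79. The SD of Rgs5 in Protocol 2 was 10.67 CPM in Control and 21.35 with HMGB1. No member of the 12 marker lists tested was called for the response difference. With the replicate block described below 5 were more negative, beside 1.93% of all genes. The part of other cells in the results below was not tested. In bulk samples fewer cells of a type and less RNA per cell cannot be told apart.

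In Protocol 2, 201 genes rose with HMGB1 (1.14% of those tested) and 28 fell (0.159%). In Protocol 3, 11 rose (0.0624%) and 0 fell (0%), where 1072 genes had an unadjusted p below 0.05, 622 of them with a negative fold change, and the DESeq2 Wald test called 9 falls. The difference between the responses was called negative for 0.329% of the genes and positive for 0.0227%, by edgeR's quasi-likelihood test at an adjusted p below 0.05. Control and HMGB1 libraries of one replicate number were also treated as pairs, which was inferred from the data and is not stated in the labels. With that number as a replicate block the same comparison called 341 genes more negative (1.93%) and 169 more positive (0.958%). The block fit called 57 of the 58 and all 4 of the main calls. The 58 had a median log2 fold change of 1.00 in Protocol 2 and 0.08 in Protocol 3, against -0.003 and -0.02 over all genes tested. The 58 were chosen by the difference of these same fold changes, so the medians only describe that choice. Every one of the 58 was also called as a rise in Protocol 2, which shares its libraries with the difference. By the main test Acod1 alone among them rose in Protocol 3 as well. With the block 14 of the 58 rose there, beside 1.24% of all genes. Among the 14 were Tnf, Gpr84, Nfkbiz, Marcksl1, Tlr2, Nfkbia, Nlrp3, Cdc42ep2 and Tnip3 but not Acod1. By DESeq2 5 of the 58 rose there (0.284% of all genes), namely Tnf, Acod1, Nfkbiz, Marcksl1 and Icam1. No gene was called in opposite directions in the 2 protocols.

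**Figure D1:**
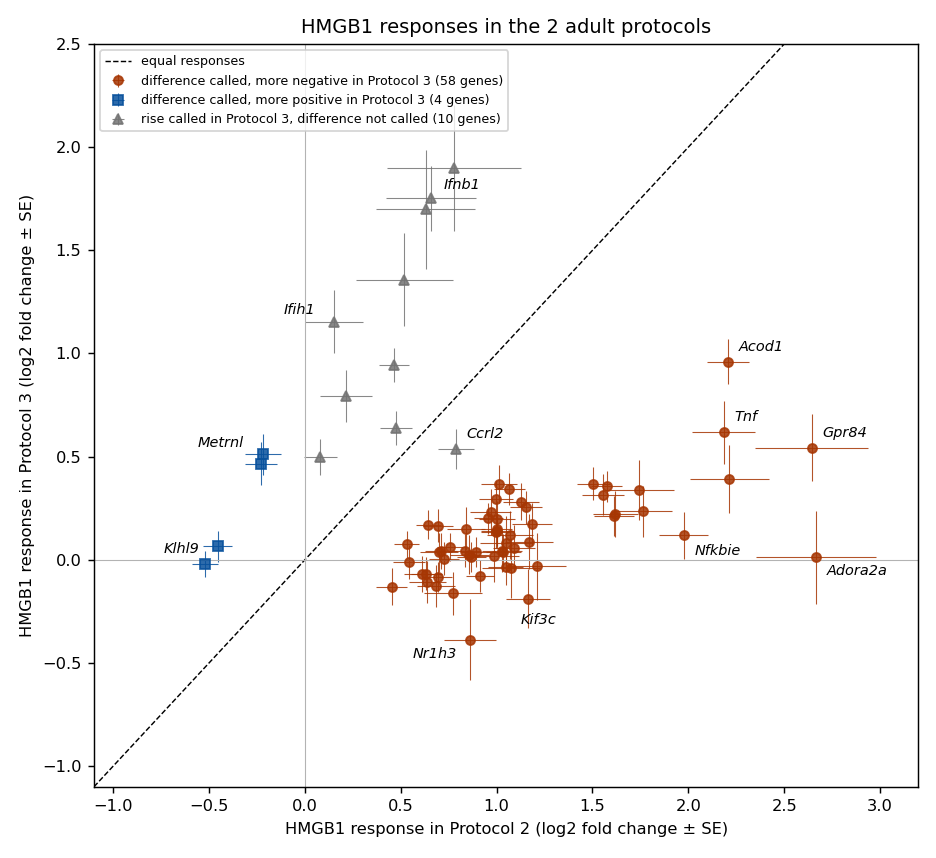
HMGB1 response of each gene in Protocol 2 (x axis) and in Protocol 3 (y axis), as log2 fold change with its standard error, for the 62 genes called for the difference and the 10 other genes called in Protocol 3 alone or in both. The dashed line marks equal responses, and the 58 genes lie below it, most of them close to 0 on the y axis.

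Nfkbia and Nfkbie, which encode inhibitors of NF-κB, were among the genes called more negative, and their promoter sequences are shown here with that of Ifnb1, whose difference had the opposite sign. The windows run from 250 bases before to 50 after a start site in the RefSeq table for GRCm38.p6, and capitals mark matches to a κB motif (GGG, any 3 bases, then TTCC) on either strand. Nfkbia is read from the minus strand at chr12:55492598-55492897, Nfkbie from the plus strand at chr17:45555450-45555749, and Ifnb1 from the minus strand at chr4:88522745-88523044.
Nfkbia: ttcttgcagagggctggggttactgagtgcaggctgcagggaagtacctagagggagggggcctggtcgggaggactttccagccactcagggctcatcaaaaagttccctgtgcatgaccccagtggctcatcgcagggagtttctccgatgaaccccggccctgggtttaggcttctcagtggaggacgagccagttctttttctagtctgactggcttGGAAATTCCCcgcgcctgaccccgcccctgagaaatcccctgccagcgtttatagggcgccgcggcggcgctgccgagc
Nfkbie: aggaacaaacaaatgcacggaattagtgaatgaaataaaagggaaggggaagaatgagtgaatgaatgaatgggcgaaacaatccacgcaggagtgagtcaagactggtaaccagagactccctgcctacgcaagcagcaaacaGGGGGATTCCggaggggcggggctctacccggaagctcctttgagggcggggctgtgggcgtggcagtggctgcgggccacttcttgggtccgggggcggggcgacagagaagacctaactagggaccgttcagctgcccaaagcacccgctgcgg
Ifnb1: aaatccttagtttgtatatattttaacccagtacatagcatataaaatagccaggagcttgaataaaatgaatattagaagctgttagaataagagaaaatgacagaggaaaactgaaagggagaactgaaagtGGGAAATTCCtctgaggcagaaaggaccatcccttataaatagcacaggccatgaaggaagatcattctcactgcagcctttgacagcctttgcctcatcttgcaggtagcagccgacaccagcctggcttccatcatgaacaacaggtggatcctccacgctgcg
Of the 58 genes, 45 were in the table, and 5 of them (11.1%) held the motif in at least one window, beside 7.36% of the tested genes found there. The AP-1 motif TGANTCA, searched separately on both strands, was in 3 of the 45 (6.67%), beside 6.86%. In the NF-κB list described next, 8 of 26 genes (30.8%) held the κB motif and 19.2% the AP-1 motif, and among 30 interferon response genes 23.3% held the κB motif and 26.7% the AP-1 motif. A match describes the letters only and is no measure of binding.

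A list of 30 NF-κB subunits, inhibitors and targets, all tested, was chosen with earlier results of these data known. Of these, 15 were called more negative in Protocol 3 and 0 more positive, beside 0.329% and 0.0227% of all genes. With the replicate block the count was 25 and 0, beside 1.93% and 0.958%. The median difference of the list was -0.61, beside -0.02 over all genes. In Protocol 2, 24 members rose, beside 1.14% of all genes. In Protocol 3, 0 passed, beside 0.0624%, and 12 did with the block, where 1.24% of all genes rose. Nfkbie, which encodes IκBε, stood at 10.8, 9.43 and 10.2 CPM in the Protocol 2 Controls and at 48.0, 36.2 and 35.8 CPM with HMGB1. In Protocol 3 the Controls held 179, 173 and 152 CPM and the HMGB1 libraries 193, 199 and 156 CPM. The groups of Protocol 2 were well apart, whereas those of Protocol 3 overlapped, and the lowest Protocol 3 Control lay above the highest Protocol 2 HMGB1 library. It rose by 1.98 on the log2 scale in Protocol 2 and had 0.12 in Protocol 3, a difference of -1.86 (standard error 0.17, adjusted p = 6.01e-05).

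Nfkbia encodes IκBα, an inhibitor that NF-κB itself induces. Its levels were 47.1, 38.7 and 42.9 CPM in Protocol 2 Control and 145, 122 and 128 CPM with HMGB1. Protocol 3 Controls held 1109.8, 1167 and 902 CPM and the treated libraries of the same numbers 1359, 1303 and 1049 CPM. The Protocol 3 groups overlapped, yet each treated library was above the Control of its number. Its log2 response of 1.62 in Protocol 2 and 0.22 in Protocol 3 left a difference of -1.39 (standard error 0.161, adjusted p = 3.29e-04). The Protocol 3 response had an adjusted p of 0.864, or 6.49e-04 with the replicate block. Nfkbiz, a nuclear IκB protein, went from 23.5 ± 2.01 to 70.1 ± 5 CPM in Protocol 2 and from 553 ± 20 to 708 ± 12.6 CPM in Protocol 3 (SD, n = 3). Its difference of -1.22 had the smallest adjusted p of all (2.91e-05).

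Other members of the list are given by the rule for named genes. Nlrp3, the sensor of the inflammasome, was at 18, 17.6 and 17.2 CPM in Protocol 2 Control and 64.9, 52.3 and 44.1 CPM with HMGB1, against 825, 842 and 819 CPM and then 943, 963 and 977 CPM in Protocol 3. No groups overlapped, and the difference was -1.40 (standard error 0.143, adjusted p = 6.01e-05). Marcksl1, a protein that binds actin and calmodulin, differed by -1.14 (adjusted p = 6.01e-05). Traf1, an adaptor of TNF receptors, differed by -1.53 (adjusted p = 9.62e-04) and Tnip3, which restrains NF-κB, by -1.40 (adjusted p = 0.00715). The 15 uncalled members had differences from -0.53 (Tnfaip2, adjusted p = 0.189, with the block 2.23e-08) to 0.06 (Birc2). They included the inhibitors Nfkbib, Nfkbid, Tnfaip3 and Tnip1, at -0.44, -0.43, -0.43 and -0.35 (adjusted p = 0.440, 0.616, 0.437 and 0.574, all called with the block). The 2 uncalled members with the highest mean over the 4 groups were Nfkb1, the p105 and p50 subunit, at -0.35 (adjusted p = 0.376, with the block 1.05e-04) and Tnfrsf1b, a TNF receptor, at -0.46 (adjusted p = 0.198, with the block 5.17e-07).

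**Figure D2:**
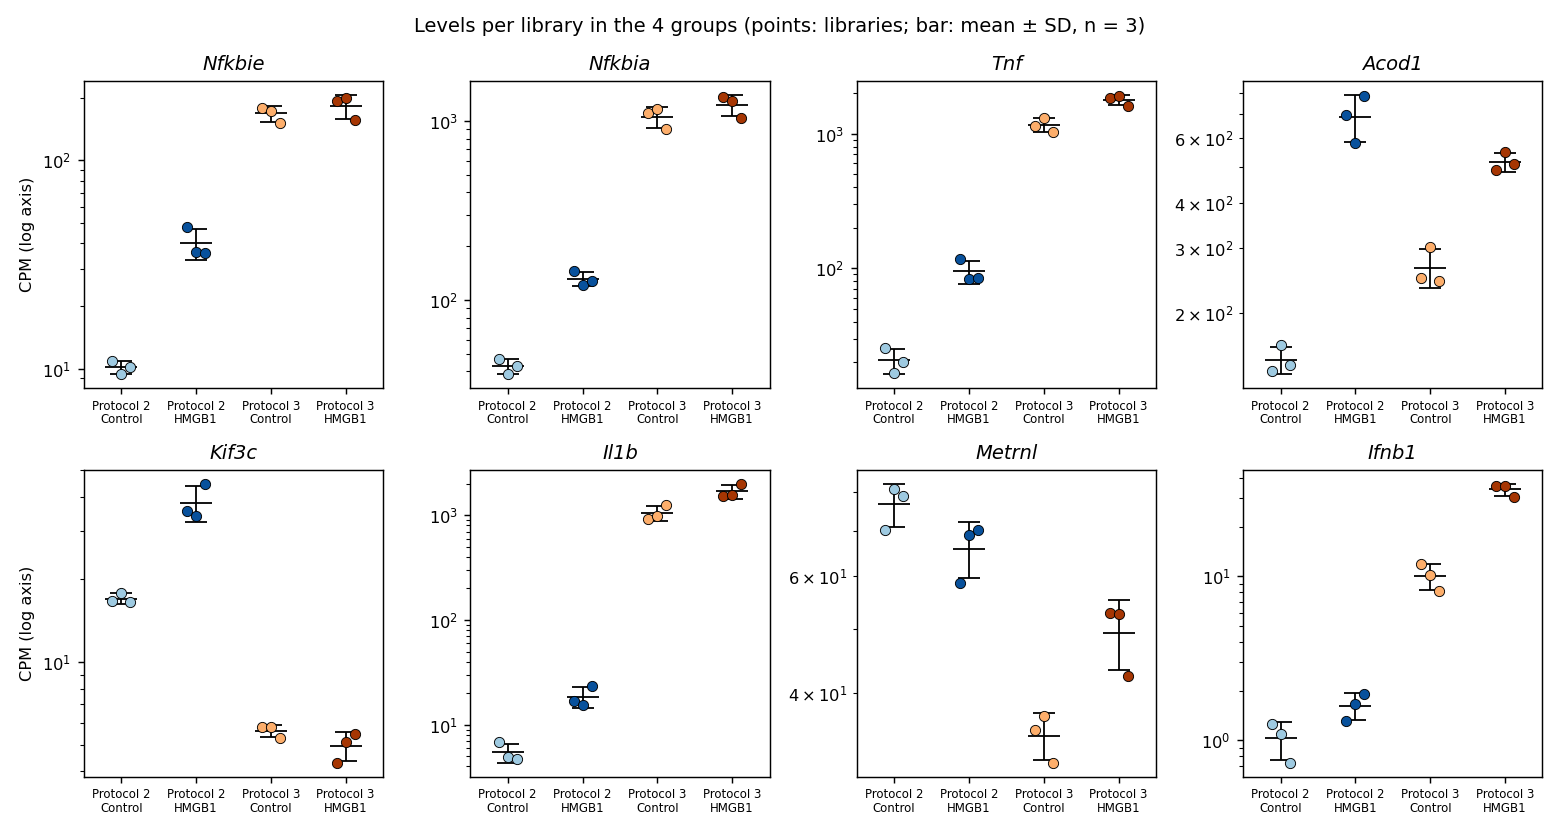
CPM of 8 genes in each library on a log axis, by group, with the mean and SD of 3 libraries as bars. Nfkbie, Nfkbia, Tnf and Il1b start far higher in Protocol 3 Control than in Protocol 2 Control. In Protocol 3 all HMGB1 libraries lie above all Controls for Tnf, Acod1, Il1b, Metrnl and Ifnb1. Of these, the main test called the Protocol 3 rises of Acod1 and Ifnb1. Kif3c is lower in Protocol 3 than in either Protocol 2 group.

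Tnf encodes the cytokine TNFα. Its levels were 25.6, 16.8 and 20.1 CPM in Protocol 2 Control and 116, 83.5 and 84.8 CPM with HMGB1. In Protocol 3 they were 1136, 1309 and 1035 CPM in Control and 1846, 1889 and 1605 CPM with HMGB1. All treated libraries lay above all Controls of their protocol. On the log2 scale it rose by 2.18 (standard error 0.165) in Protocol 2 and its response in Protocol 3 was 0.62 (standard error 0.153, adjusted p = 0.329, with the block 3.54e-15 and by DESeq2 0.00589). The difference of -1.57 passed (standard error 0.222, adjusted p = 0.00470). Il1b, which encodes IL-1β, was at 6.78, 4.92 and 4.73 CPM in Protocol 2 Control and 16.7, 15.6 and 23.3 CPM with HMGB1, and at 915, 986 and 1242 CPM and then 1529, 1579 and 2004 CPM in Protocol 3. Its groups did not overlap either, and its difference of -1.05 did not pass (standard error 0.266, adjusted p = 0.259). It was 0.0601 with the replicate block and 0.00229 by the DESeq2 Wald test, so the call of Il1b depends on the method.

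Ifnb1, the gene of interferon β, had the larger log2 fold change in Protocol 3. It stood at 1.26, 1.10 and 0.731 CPM in Protocol 2 Control and 1.31, 1.67 and 1.91 CPM with HMGB1, and at 11.8, 10.2 and 8.18 CPM in Protocol 3 Control and 35.7, 35.4 and 30.6 CPM with HMGB1. The rise in Protocol 3 passed (1.75 on the log2 scale, standard error 0.158, adjusted p = 1.74e-05), that in Protocol 2 did not (0.66, adjusted p = 0.337). The difference of 1.10 (standard error 0.286) had an adjusted p of 0.181. With the replicate block the adjusted p was 0.00763 and by DESeq2 0.0281, so this call too depends on the method. Of the 24 inflammatory cytokines tested, Tnf was the only one called for the difference, beside 0.329% of all genes called more negative. With the block 2 were more negative and 4 more positive, beside 1.93% and 0.958% of all genes. The median difference of the list was -0.01. By the main test 5 members rose in Protocol 2 and 3 in Protocol 3, beside 1.14% and 0.0624% of all genes. With the block the order was reversed, with 7 rises in Protocol 2 and 12 in Protocol 3, beside 3.44% and 1.24% of all genes. The uncalled members with the highest mean over the 4 groups were Il1a, at -0.30 (adjusted p = 0.856, with the block 0.00441), and the growth factor gene Csf1, at 0.29 (adjusted p = 0.869, with the block 0.00412).

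Genes outside the NF-κB list were also among the largest negative differences. Adora2a, an adenosine receptor, had the largest at -2.65 (standard error 0.389, adjusted p = 0.00328). It was at 0.815, 0.909 and 0.5 CPM in Protocol 2 Control, at 6.73, 3.26 and 4.26 CPM with HMGB1, at 17.4, 20.1 and 12.4 CPM in Protocol 3 Control and at 16.8, 18.8 and 14.8 CPM with HMGB1. The treated libraries of Protocol 3 lay within the range of its Controls. Gpr84, a receptor for medium-chain fatty acids and a member of the NF-κB list, went from 0.830 ± 0.179 to 5.23 ± 2.03 CPM in Protocol 2 and from 133 ± 10 to 194 ± 18.4 CPM in Protocol 3, a difference of -2.10 (adjusted p = 0.0294). Its call was lost without any one Protocol 2 Control, without Protocol 3 Control replicate 2 or 3 or without Protocol 3 HMGB1 replicate 1 or 3, with adjusted p up to 0.106. Cdc42ep2, an effector of the GTPase CDC42, differed by -1.82 (adjusted p = 0.00176).

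Acod1 makes itaconate, a metabolite of activated macrophages. Its Controls did not differ as widely between protocols, at 139, 163 and 144 CPM in Protocol 2 and 249, 303 and 244 CPM in Protocol 3. HMGB1 brought it to 694, 581 and 784 CPM in Protocol 2 and to 490.0, 551 and 509 CPM in Protocol 3. Protocol 3 had the higher Controls and Protocol 2 the higher treated libraries, and no groups overlapped. Acod1 rose in both, by 2.21 and by 0.96 (standard error 0.107, adjusted p = 4.27e-04, with the replicate block 0.0581), and the difference was -1.25 (standard error 0.151, adjusted p = 4.06e-04). For the difference the block gave an adjusted p of 0.0593, the only one of the 58 that this fit did not call. Ch25h, which makes 25-hydroxycholesterol, had Controls at 8.24 ± 1.24 CPM in Protocol 2 and 9.92 ± 0.860 CPM in Protocol 3, and stood with HMGB1 at 19.1 ± 1.23 CPM in Protocol 2 against 9.79 ± 2.5 CPM in Protocol 3. Its difference of -1.24 (adjusted p = 0.0130) was lost without Protocol 2 Control replicate 3 or Protocol 3 Control replicate 2 (adjusted p up to 0.0589). These 2 were the calls among 17 enzymes and transporters of lipid mediators, nitric oxide and itaconate, beside 0.329% of all genes called more negative. The median difference of this list was -0.04. Its uncalled members with the highest mean over the 4 groups were Ptgs2, cyclooxygenase 2, at -0.74 (adjusted p = 0.8), and Tbxas1, thromboxane synthase, at -0.04.

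Other genes were low in Protocol 3 to begin with. Kif3c, a kinesin motor subunit, was at 16.6, 17.9 and 16.5 CPM in Protocol 2 Control, at 35.6, 34.1 and 44.7 CPM with HMGB1, and below 6 in all Protocol 3 libraries, at 5.79, 5.78 and 5.30 CPM in Control and 4.29, 5.11 and 5.46 CPM with HMGB1. Its difference was -1.35 (standard error 0.183, adjusted p = 7.92e-04). Nr1h3, the liver X receptor α, went from 19.1 ± 2.36 to 34.6 ± 2.76 CPM in Protocol 2 and stood at 3.17 ± 0.614 and 2.38 ± 0.569 CPM in Protocol 3, a difference of -1.25 (adjusted p = 0.0210). That call was lost without Protocol 2 Control replicate 2, Protocol 2 HMGB1 replicate 3, Protocol 3 Control replicate 2 or 3 or Protocol 3 HMGB1 replicate 2 or 3 (adjusted p up to 0.0945). Across the 58 genes, 37 (63.8%) had every Protocol 3 Control above every Protocol 2 HMGB1 library, as did 38.9% of all genes tested. In 10 (17.2%) every Protocol 3 Control was below every Protocol 2 Control, against 42.2% of all genes, and 11 showed neither order. The negative difference was thus found in genes with a higher and with a lower starting level in acutely isolated cells.

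Levels that differ this much make the scale matter. A gain of the same number of CPM is a small fold change where the Control is high. On the CPM scale 45 of the 58 genes gained more in Protocol 2 and 13 more in Protocol 3. Tnf gained 73.9 CPM in Protocol 2 and 620.1 CPM in Protocol 3, a difference of 546 CPM (standard error 120). Nfkbia gained 88.8 and 178 CPM (difference 88.7, standard error 125), Nfkbiz 46.6 and 155 CPM, Nlrp3 36.2 and 132 CPM and Gpr84 4.40 and 61.0 CPM. The sign for these 5 genes is thus opposite on the 2 scales. By replicate number, the 3 gains in Protocol 3 were all above the 3 of Protocol 2 in 9 of the 58 genes, and below them in 40. Over all genes tested the shares were 10.7% and 9.06%. The 58 were chosen from these same libraries by a smaller log2 response in Protocol 3, which favours larger gains in Protocol 2. The counts of gains among them are therefore a description and not a test. The two-sided exact permutation test of 3 gains against 3 gave p = 0.1 for Tnf, Nfkbia, Nfkbiz, Nlrp3 and Gpr84, the smallest it can give in this design.

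**Figure D3:**
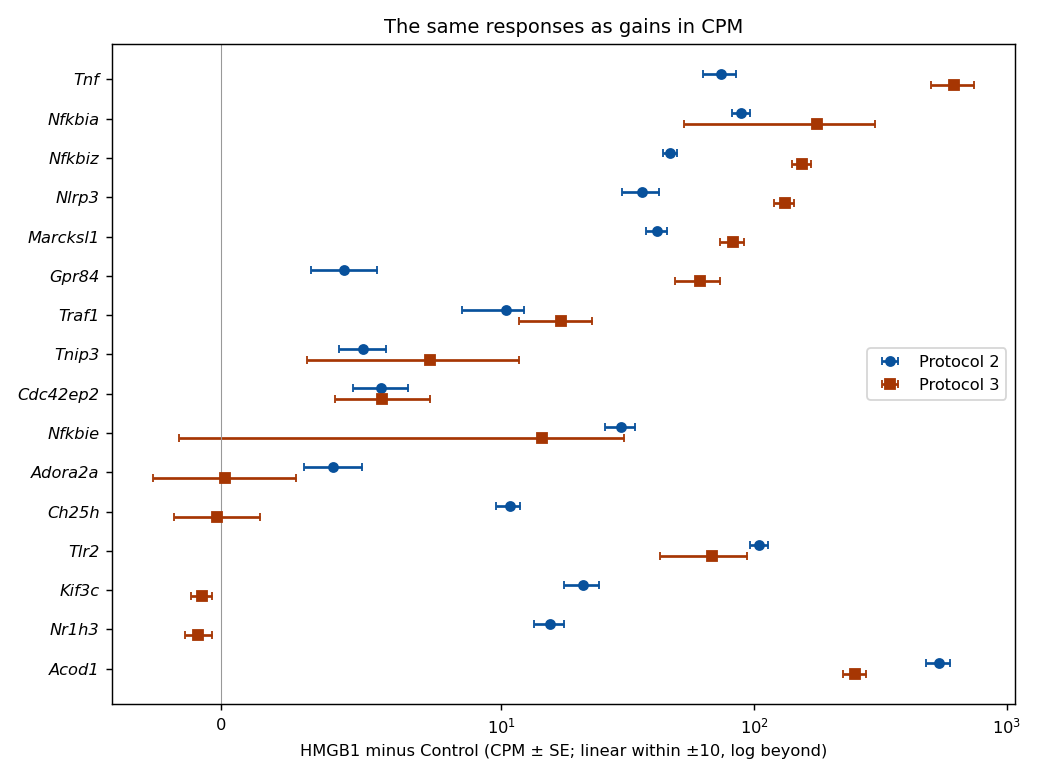
HMGB1 mean minus Control mean in CPM, with its standard error, for 16 of the 58 genes in Protocol 2 (circles) and Protocol 3 (squares), on an axis that is linear within 10 CPM of 0 and logarithmic beyond. Tnf, Nfkbiz, Nlrp3, Marcksl1 and Gpr84 gain more CPM in Protocol 3, while Acod1, Kif3c, Nr1h3 and Ch25h gain more in Protocol 2.

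Only 4 genes were more positive in Protocol 3. Metrnl, a secreted protein, was at 70.2, 81.0 and 78.8 CPM in Protocol 2 Control and 58.5, 69.0 and 70.2 CPM with HMGB1, and at 35.2, 37.0 and 31.5 CPM and then 52.7, 52.6 and 42.5 CPM in Protocol 3. The treated libraries were above all Controls in Protocol 3, and in Protocol 2 every treated library was at or below the lowest Control. The difference was 0.73 (standard error 0.138, adjusted p = 0.0209), although neither response passed by itself in this fit. With the block both did (adjusted p = 0.0128 in Protocol 2 and 1.83e-07 in Protocol 3), and DESeq2 called the one in Protocol 3 (0.00656). Cd200r1, an inhibitory receptor of myeloid cells, went from 107 ± 7.66 to 91.7 ± 6.95 CPM in Protocol 2 and from 8.48 ± 0.941 to 11.7 ± 0.783 CPM in Protocol 3, a difference of 0.69 (adjusted p = 0.0238), and its responses too passed with the block (0.00970 and 8.43e-04). Ppard, the nuclear receptor PPARδ, fell in Protocol 2 from 26.3 ± 0.562 to 18.3 ± 0.298 CPM and stood at 120.2 ± 2.54 and 118 ± 6.18 CPM in Protocol 3, a difference of 0.50 (adjusted p = 0.0169). Klhl9, a substrate adaptor of a ubiquitin ligase, fell in Protocol 2 from 95.2 ± 5.04 to 69.4 ± 6.16 CPM and stood at 60.4 ± 1.04 and 63.3 ± 2.98 CPM in Protocol 3, a difference of 0.52 (adjusted p = 0.0367). The count of 4 became 0 without Protocol 2 Control replicate 2 or 3, 1 without Protocol 2 HMGB1 replicate 1, Protocol 3 Control replicate 2 or Protocol 3 HMGB1 replicate 1, 2 without Protocol 3 Control replicate 1 or Protocol 3 HMGB1 replicate 2, and 9 without Protocol 2 Control replicate 1. These counts can include genes other than the 4 named here. Without Protocol 2 HMGB1 replicate 1 all 4 lost their call, so the 1 counted there was another gene. Over the fits that left out 1 library the adjusted p of Metrnl, Cd200r1, Ppard and Klhl9 reached at most 0.0993, 0.109, 0.0860 and 0.186.

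Of 40 interferon response genes tested, 0 were called for the difference in either direction, but 33 had a difference above 0, as 8053 of all 17634 genes did, and their median was 0.20. At an unadjusted p below 0.05 there were 3 more positive and 0 more negative, beside 2.23% and 3.81% of all genes. The DESeq2 Wald test called 1 more positive. With the replicate block 15 were more positive in Protocol 3, beside 0.958% of all genes. The transcription factor gene Irf1 alone was more negative with the block, beside 1.93%. In Protocol 3 Ifih1 alone rose, beside 0.0624% of all genes, and 20 did with the block, beside 1.24%. Protocol 2 had 0 rises, or 8 with the block, where 3.44% of all genes rose. Ifih1, the RNA sensor MDA5, was at 112, 149 and 154 CPM in Protocol 2 Control and 126, 161 and 174 CPM with HMGB1, and at 165, 160.1 and 125 CPM and then 329, 365 and 306 CPM in Protocol 3. The Protocol 2 groups overlapped and those of Protocol 3 were far apart. Its difference was 1.00 (standard error 0.213), with adjusted p = 0.1, and 7.76e-16 with the block, which has 4 residual degrees of freedom and takes its smallest p values mainly from spread shared across genes. The uncalled members with the highest mean over the 4 groups were Irf7, at 0.19 (adjusted p = 0.979, with the block 0.111), and Rsad2, viperin, at 0.60 (adjusted p = 0.874). Rsad2 was at 463, 705 and 655 CPM in Protocol 2 Control and 580.5, 872 and 965 CPM with HMGB1, and at 515, 527 and 357 CPM and 987, 998 and 827 CPM in Protocol 3, and its adjusted p with the block was 6.70e-07. Starting levels in this list were mostly lower in acutely isolated cells, with every Protocol 3 Control below every Protocol 2 Control for 33 of the 40, against 42.2% of all genes.

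**Figure D4:**
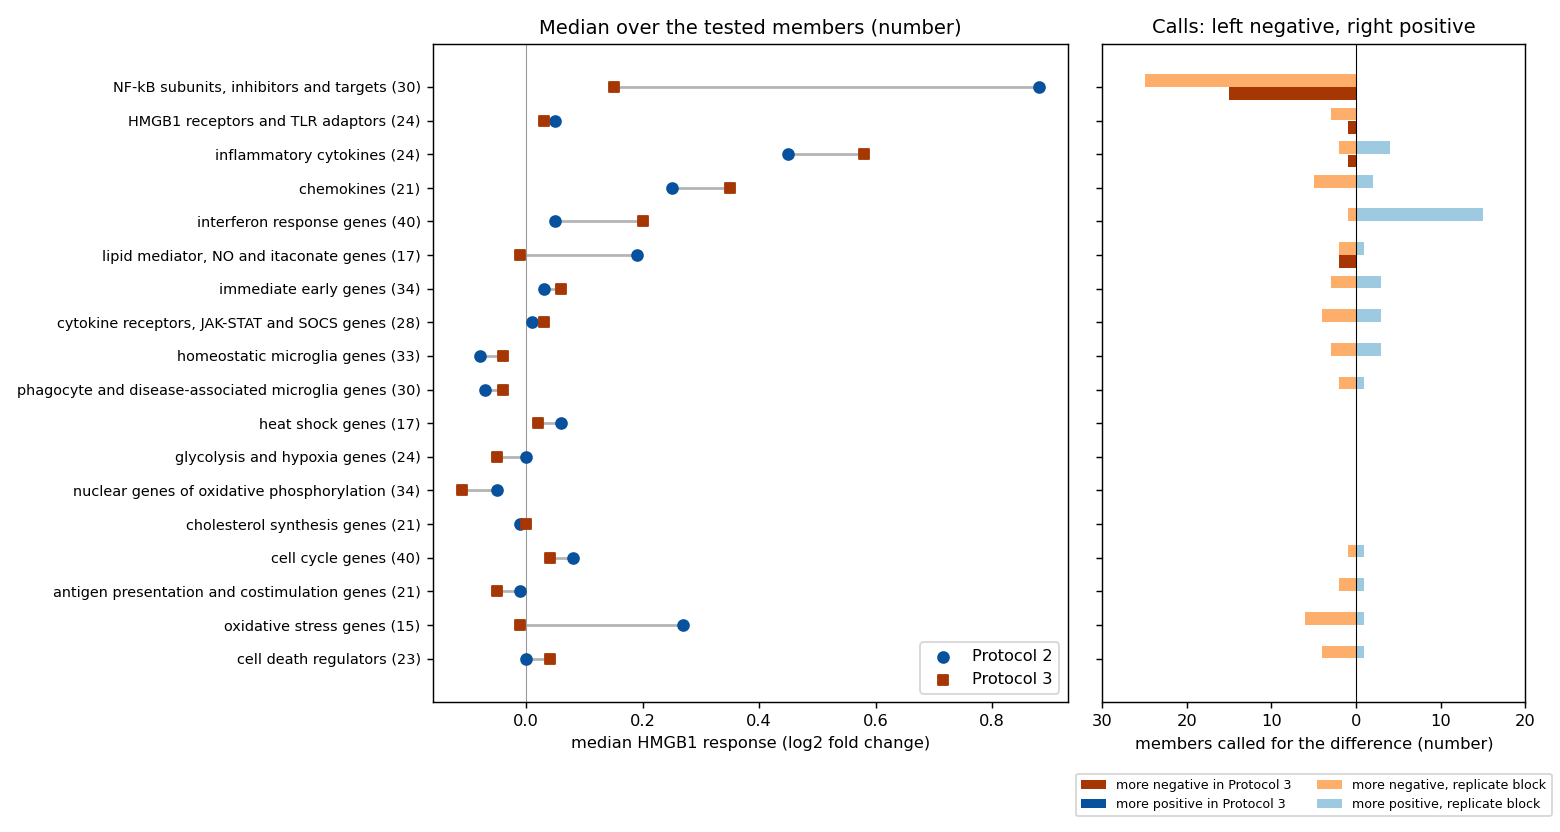
Left, the median log2 fold change with HMGB1 over the tested members of 18 gene lists in Protocol 2 (circles) and Protocol 3 (squares). Right, the number of members called for the difference without and with the replicate block, negative to the left and positive to the right. NF-κB genes fall to the left, with 15 and 25 calls, and interferon response genes to the right with the block only, with 15 calls.

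Among 24 HMGB1 receptors and TLR adaptors, 3 were more negative and 0 more positive with the block, beside 1.93% and 0.958% of all genes. By the main test Tlr2 was the only one to pass, beside 0.329% of all genes called more negative. It was at 84.7, 86.4 and 86.3 CPM in Protocol 2 Control and 207, 177 and 188 CPM with HMGB1, and at 321, 380.1 and 361 CPM and then 391, 456 and 419 CPM in Protocol 3, where each treated library was above every Control. Its difference was -0.90 (standard error 0.114, adjusted p = 4.72e-04). The list's median was 0.04, with Cd14, the coreceptor of TLR4, at -0.35 (adjusted p = 0.860, with the block 0.00102) and Tab2, an adaptor of the kinase TAK1, at 0.07. Of 21 chemokines 0 passed the edgeR test, with a median of -0.06. At an unadjusted p below 0.05, 4 were more negative and 2 more positive, beside 3.81% and 2.23% of all genes. With the block 5 and 2 were called, beside 1.93% and 0.958%. By DESeq2 1 and 1 were called, beside 95 and 19 of all 17634 genes. Ccl3 had a difference of -0.35 (adjusted p = 0.567, with the block 1.66e-04) and Ccl6 of -0.12. Ccl7, a ligand of CCR2, rose in both protocols, from 121 ± 8.05 to 168 ± 16.3 CPM in Protocol 2 and from 51.3 ± 4.17 to 98.7 ± 0.731 CPM in Protocol 3, with a difference of 0.48 (adjusted p = 0.102, with the block 6.68e-06).

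Sdc4 and Ccrl2 rose in both protocols without a called difference. Sdc4, the proteoglycan syndecan 4, rose by 0.48 in Protocol 2 and by 0.64 in Protocol 3, a difference of 0.16 (standard error 0.117, adjusted p = 0.927). Ccrl2, a receptor that binds chemerin, rose by 0.79 and by 0.54, a difference of -0.25 (standard error 0.136, adjusted p = 0.864). A difference that misses the threshold does not show equal responses. The other genes that rose in Protocol 3, named after their values were seen, were Il6, Mmp13, Areg, Tspan33 and Adgrg6. Il6, the gene of interleukin 6, was at 2.63, 1.82 and 2.27 CPM in Protocol 2 Control and 3.64, 1.70 and 4.33 CPM with HMGB1, and at 6.39, 7.12 and 6.61 CPM and then 17.1, 17.1 and 17.4 CPM in Protocol 3. Its difference of 0.84 had an adjusted p of 0.719, or 0.0310 with the block. Mmp13, a collagenase, had a difference of 0.42 (adjusted p = 0.339, with the block 1.80e-05), Tspan33, a tetraspanin, of 0.58 (0.440 and 0.00513), Areg, an EGF receptor ligand, of 1.12 (0.751 and 0.114), and Adgrg6, an adhesion receptor, of 1.07 (0.592 and 0.101). Of the 11 rises in Protocol 3, those of Acod1, Sdc4, Ccl7 and Ifnb1 held without each library in turn. Those of Mmp13, Ifih1, Il6 and Adgrg6 were lost without any one of the 6 Protocol 3 libraries, at adjusted p up to 0.197, 0.119, 0.174 and 0.183. Tspan33 was lost without each of these but HMGB1 replicate 3 (up to 0.168), and Areg without each but Control replicate 3 (up to 0.123). Ccrl2 was lost without Control or HMGB1 replicate 2 or 3 of Protocol 2, Control replicate 1 or 3 of Protocol 3 or HMGB1 replicate 1 or 2 of Protocol 3 (up to 0.335). The count of 11 became 4 to 7 without any one Protocol 3 library, 21 without Protocol 2 Control replicate 1 and 25 without Protocol 2 HMGB1 replicate 1.

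The remaining 12 lists, with 320 members tested, had 0 edgeR calls for the difference. At an unadjusted p below 0.05, 23 of their members were more negative and 12 more positive, beside 3.81% and 2.23% of all genes. With the block 25 and 14 were called, larger shares than the 1.93% and 0.958% of all genes. By DESeq2 2 and 4 were called, beside 95 and 19 of all 17634 genes. Immediate early genes, 34 in all, had a median difference of 0.04, although 33 of them stood higher in every Protocol 3 Control than in every Protocol 2 HMGB1 library, an order shown by 38.9% of all genes. Egr1 and Dusp1 had differences of 0.14 and 0.02. Heat shock genes (17, median -0.04) had 15 members so placed, with Hspa8 at -0.02 and Hsp90aa1 at 0.02. Homeostatic microglia genes (33) had a median of 0.05 and phagocyte and disease-associated genes (30) of 0.02, with the proteases Ctss and Ctsb at 0.06 and 0.08, the protease inhibitor Cst3 at 0.06 and the ferritin gene Fth1 at 0.15. Cytokine receptor, JAK-STAT and SOCS genes (28) had a median of -0.02, with Pim1 at -0.39 (adjusted p = 0.596, with the block 2.97e-05) and Il10ra at -0.03. Oxidative stress genes (15) had the median furthest from 0 among these, -0.17, and 6 were more negative with the block, among them Txnrd1 at -0.35 (2.59e-04) and Sqstm1 at -0.32 (4.05e-04). Cell death regulators (23) had a median of -0.05, with Mcl1 at 0.04 and Cdkn1a at 0.12. Antigen presentation and costimulation genes (21) had -0.04, with B2m at 0.15 and H2-D1 at -0.06. Cell cycle genes (40) had -0.04, with Ccnd1 at -0.24 (with the block adjusted p = 0.0493) and Pcna at 0.12, and oxidative phosphorylation genes (34) had -0.11, with Atp5a1 and Atp5b at -0.07 each. Glycolysis and hypoxia genes (24) had -0.02, with Pkm at 0.06 and Aldoa at -0.02, and cholesterol synthesis genes (21) had 0.00, with Srebf2 at 0.01 and Msmo1 at 0.02.

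The neonatal cultures of the series gave a look at the 58 genes in libraries that did not enter the comparison. Each was tested in Protocols 1A, 1B and 1C, in separate fits of the 6 libraries of a protocol. Rises in all 3 were called for 53 of the 58, as they were for 21.9% of the 12678 genes tested there. The 58 had a median log2 fold change of 2.44 (1A), 3.07 (1B) and 2.41 (1C), against 1.00 in Protocol 2. Acod1 rose by 7.33, 10.08 and 8.19, Adora2a by 6.19, 9.86 and 6.16, and Nfkbie by 3.51, 3.72 and 3.46. Kif3c had 1.27, 0.52 and 0.87. Rapgef5, an activator of the GTPase RAP1, and Madd, a regulator of RAB3 and TNF receptor signalling, chosen here after their values were seen, had 0.14, 0.55 and -0.68 and -0.64, -0.15 and -0.55, although they rose in Protocol 2.

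**Figure D5:**
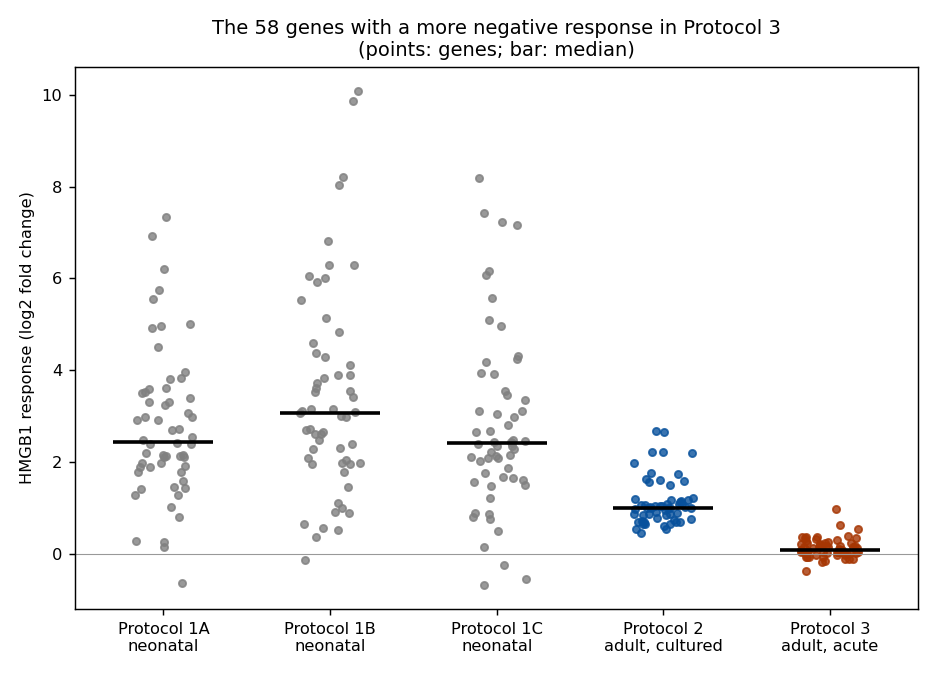
Log2 fold change with HMGB1 in each of the 5 protocols for the 58 genes with a more negative response in Protocol 3, 1 point per gene and protocol, with the median as a bar. The medians are 2.44, 3.07 and 2.41 in the neonatal protocols, 1.00 in Protocol 2 and 0.08 in Protocol 3, and the last 2 were used to choose the genes.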

How the data were processed

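RNA of microglia was sequenced as NEBNext libraries. Per the labels, alignment by the authors used HISAT2 2.0.5 and counting used featureCounts 1.5.0-p3. The deposited table holds whole-number counts for 54532 genes, not normalized, and strand setting and genome build are not given in the sources used here. Gene positions equalled those of GENCODE M21 (GRCm38) for 98.3% of shared identifiers. Columns of the table without counts are annotation. Counts were analysed as deposited.

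The 12 libraries of Protocols 2 and 3 were fitted together in R 4.3.3 with edgeR 4.0.16 (filterByExpr, TMM, robust quasi-likelihood F test, 4 group means, 8 residual degrees of freedom). P values were adjusted by Benjamini-Hochberg over the 17634 genes, with 0.05 as threshold and no fold minimum. Levels are TMM-scaled CPM, mean ± SD of 3 libraries. Depth was 14151983 to 26971097 counts, so genes of a few CPM rest on few reads and are less precise. The study's own methods used DESeq2, which is an alternative here (DESeq2 1.42.0), as are voom (limma 3.58.1), other scaling and filters, all 30 libraries, a log2 minimum of 1 and leaving out each library. Scripts were tested on simulated data.

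Labels call replicates biological. Deviations from group means correlated between Control and HMGB1 libraries of one number. The values were 0.305 to 0.438 in Protocol 2 and 0.216 to 0.297 in Protocol 3. Those for other numbers were below 0, which partly follows from centring each group of 3 on its mean. The fit with replicate number as a block (4 residual degrees of freedom) is therefore printed beside each named difference whose call it changes. The pairing is inferred from these correlations. P values otherwise measure the spread between these samples only.

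Genes and lists were chosen with earlier results of these data known. Named were Tnf, Il1b and Ifnb1, the 12 largest called differences of each sign among protein-coding genes of at least 10 CPM in the highest group, of each list up to 4 called members by adjusted p and 2 uncalled ones by mean CPM over the groups, and genes that rose in both protocols without a called difference. Promoters are RefSeq's.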

Additional observations from a re-analysis of the deposited data

Results flagged for a closer look

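The response to HMGB1 differed between Protocol 3 and Protocol 2 by the interaction term for 20 of the named genes. More negative in Protocol 3 on the log2 scale were Adora2a (-2.65), Gpr84 (-2.10), Nfkbie (-1.86), Cdc42ep2 (-1.82), Tnf (-1.57), Traf1 (-1.53), Tnip3 (-1.40), Nlrp3 (-1.40), Nfkbia (-1.39), Kif3c (-1.35), Nr1h3 (-1.25), Acod1 (-1.25), Ch25h (-1.24), Nfkbiz (-1.22), Marcksl1 (-1.14) and Tlr2 (-0.90). More positive were Ppard (0.50), Klhl9 (0.52), Cd200r1 (0.69) and Metrnl (0.73). Each has an edgeR quasi-likelihood adjusted p below 0.05 over 17634 genes, and 37 of all 62 called genes passed without each of the 12 libraries in turn. Groups of 3 libraries are too small for a test of single libraries that lie far from their group.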

How the results depend on the processing

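All 58 negative and all 4 positive differences kept their sign under every alternative fit, and from 40 to 51 of the 58 kept their call when 1 library was left out. Counts of calls moved more. They are given here as more positive and more negative for the difference, then rises and falls in Protocol 2 and in Protocol 3. With the replicate block they were 169 and 341, 607 and 370, and 219 and 123. Without a filter beyond 1 count in total they were 23 and 131, 304 and 83, and 60 and 20. The DESeq2 Wald test gave 19 and 95, then 44 falls in Protocol 2, and 50 rises and 9 falls in Protocol 3. An absolute log2 value of at least 1 left 0 and 21, 58 and 1, and 5 rises in Protocol 3. A fit of all 30 libraries gave 5 rises and 3 falls in Protocol 3, and voom 20 rises there. Each protocol fitted alone gave 44 falls in Protocol 2 and 19 rises in Protocol 3. An alternative added after seeing the data left the Protocol 2 libraries numbered 2 out together. It gave 1 positive difference, in a gene other than the 4, and 9 falls in Protocol 2 and 7 rises in Protocol 3. Leaving out 1 library gave 0 to 9 positive and 42 to 63 negative differences, 156 to 201 rises and 8 to 31 falls in Protocol 2, and 4 to 25 rises and 0 to 2 falls in Protocol 3. The falls in Protocol 2 were 8 to 18 without Control replicate 2 or 3 or any one HMGB1 library of that protocol. The cause of these shifts was not tested, other than the smaller number of libraries or of genes. Depth limits genes near 1 CPM, such as Ifnb1 in Protocol 2.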
